A study of Rattus norvegicus with 6 samples.

Results

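The peroxide defence enzymes of the thyroid examined here were 10 genes: the glutathione peroxidases Gpx1, Gpx3 and Gpx4, the thioredoxin reductases Txnrd1 and Txnrd2, the peroxiredoxins Prdx1, Prdx4 and Prdx5, catalase (Cat) and superoxide dismutase 1 (Sod1). They were chosen by gene symbol, and all 10 were found among the 15388 genes of the count tables. Thyroid RNA came from adult Sprague-Dawley rats, with 3 samples from non-pregnant rats (NP) and 3 from rats on day 18 of pregnancy (LP, late pregnancy), counting the day of the vaginal plug as the first. The labels name no transgene or drug for either group. The methods of the study count 3 rats in each, and neither source says which rat gave which sample. The comparison of LP with NP asks how the pregnant state changes the transcripts of the maternal gland.

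The thyroid makes hydrogen peroxide on purpose. Dual oxidases at the apical membrane of the follicular cell produce it, and thyroperoxidase uses it to couple iodide to thyroglobulin. Peroxide that is not used must be removed. Glutathione peroxidases reduce it with glutathione, peroxiredoxins reduce it with thioredoxin, thioredoxin reductases regenerate thioredoxin with NADPH, and catalase splits it inside peroxisomes. Superoxide dismutases act one step earlier and turn superoxide into hydrogen peroxide. The glutathione peroxidases and thioredoxin reductases of this set are selenoproteins, with selenocysteine at the active site, and the thyroid is known for its high selenium content.

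Before the values, 1 feature of the samples must be stated. In both groups, replicates 2 and 3 lay within counting noise of each other (chi-square 1.02 per degree of freedom in NP, p = 0.111, and 0.995 in LP, p = 0.667, chi-square test over genes), while replicate 1 differed from them (3.70 to 4.11). Replicates 2 and 3 were therefore averaged and counted as 1 sample in each mean ± SD, so that n = 2 in each group. The edgeR p-values and shares of genes called do not rest on that n: they come from a fit of all 6 samples, with replicates 2 and 3 entered separately, and measure only the spread between these samples, which may be technical. With replicates 2 and 3 summed, 2541 of 12326 genes (20.6%) were called in place of 3172 of 11738. Depth was 2752144 to 3449857 counted reads per sample. The unit of level is CPM, a gene's reads relative to the library total, scaled by TMM, a method that sets libraries level on the genes that change least. Since transcript lengths were not used, levels of different genes are not compared with each other. In bulk tissue, fewer cells of a type and less RNA per cell cannot be told apart.

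Of the 10 members, 9 had enough reads to be tested. Txnrd1, Txnrd2 and Cat were higher in LP, Gpx3 was lower, and the other 5 tested members did not pass an adjusted p of 0.05 (edgeR's quasi-likelihood test, Benjamini-Hochberg adjustment over 11738 genes). Thus 4 of 9 were called, where 27% of all genes tested were, with 3 of 9 higher (15.3% of all genes) and 1 of 9 lower (11.7%). A fold change above 2 was passed by 1 member, Txnrd2, against 5.44% of all genes in either direction, 4.9% higher and 0.537% lower. The 3 LP samples lay outside the range of the 3 NP samples for 6 of the 9 (40.1% of all genes), above it for 4 (21.1%) and below it for 2 (19%). The median log2 fold change of the 9 members was 0.16, and that of all genes tested was -0.0091. With libraries scaled by their totals alone, 40.4% of all genes called were higher in LP instead of 56.6%, and the same 4 members were called. Together the 10 members took 0.108% to 0.110% of the reads of the NP samples and 0.114% to 0.121% of those of the LP samples.

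**Figure D1:**
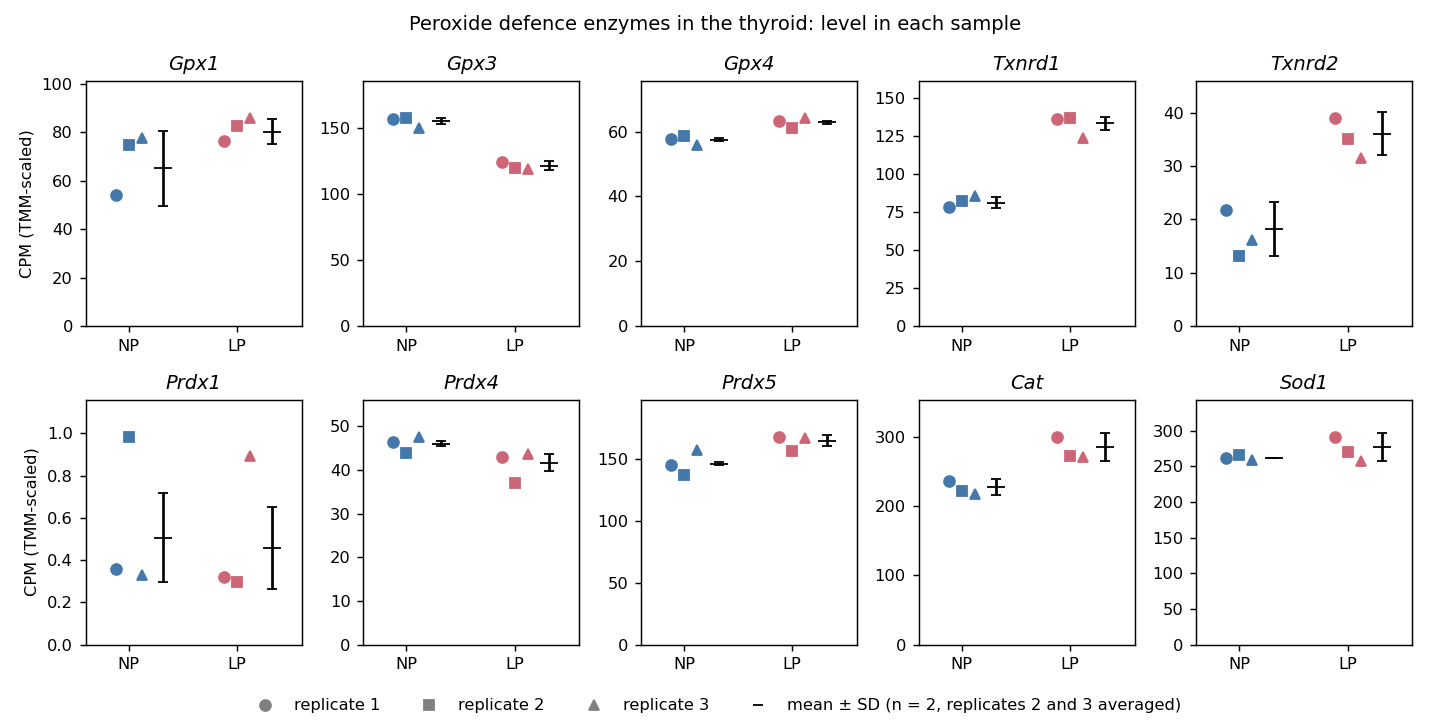
Level of each member in each sample, in CPM on a linear axis from 0 (blue: NP, red: LP; circle, square and triangle: replicates 1, 2 and 3; black: mean ± SD with replicates 2 and 3 averaged, n = 2). The LP samples of Txnrd1, Txnrd2, Cat and Gpx4 lie above the NP samples, those of Gpx3 and Prdx4 lie below, and Prdx1 stays below 1 CPM in every sample.

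Sequences before start sites are shown for the 4 members called. Each run is the 250 bases before a RefSeq start site (build GRCr8), 5′ to 3′ on the strand of the gene. Capitals mark matches on either strand to the antioxidant response element core TGACNNNGC, the GC box GGGCGG, the CCAAT box CCAAT, the TATA box TATAAA and the AP-1 site TGANTCA. The Txnrd1 run lies at chr7:22755905-22756154 (minus strand, the second of 2 start sites), the Txnrd2 run at chr11:96072476-96072725 (minus strand), the Cat run at chr3:110329527-110329776 (minus strand) and the Gpx3 run at chr10:39529085-39529334 (plus strand).
Txnrd1: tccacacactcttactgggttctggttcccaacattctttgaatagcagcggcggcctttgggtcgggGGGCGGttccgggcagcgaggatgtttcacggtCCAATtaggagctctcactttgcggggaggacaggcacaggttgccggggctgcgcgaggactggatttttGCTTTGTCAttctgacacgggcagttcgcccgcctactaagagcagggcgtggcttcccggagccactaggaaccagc
Txnrd2: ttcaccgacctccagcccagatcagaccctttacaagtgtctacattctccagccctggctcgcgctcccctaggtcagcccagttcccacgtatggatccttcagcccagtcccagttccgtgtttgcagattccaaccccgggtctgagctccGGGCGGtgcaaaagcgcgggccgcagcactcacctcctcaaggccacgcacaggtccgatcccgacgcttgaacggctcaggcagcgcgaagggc
Cat: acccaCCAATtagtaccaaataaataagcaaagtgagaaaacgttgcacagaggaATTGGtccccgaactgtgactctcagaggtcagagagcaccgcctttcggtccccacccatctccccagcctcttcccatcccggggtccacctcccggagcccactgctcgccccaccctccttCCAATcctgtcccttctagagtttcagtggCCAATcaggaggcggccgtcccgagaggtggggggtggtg
Gpx3: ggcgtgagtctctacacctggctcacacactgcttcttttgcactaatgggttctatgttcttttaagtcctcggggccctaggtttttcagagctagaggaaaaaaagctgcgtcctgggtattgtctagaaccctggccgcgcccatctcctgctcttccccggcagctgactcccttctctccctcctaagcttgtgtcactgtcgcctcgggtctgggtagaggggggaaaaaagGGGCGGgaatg
The antioxidant response element core in the Txnrd1 run lay on the strand opposite to the gene. As printed on the strand of the gene, the first base of its match lay 78 bases before the start site. The 250 bases before the first start site of Txnrd1, not shown, held no match to this core or to the other sequences marked. In windows of 300 bases (250 before to 50 after a start, with 3 starts for Gpx4, 2 for Txnrd1 and 1 for each other member), this core was found for 4 of the 10 members, Txnrd1, Prdx1, Prdx4 and Prdx5, and for 13.1% of 27457 genes counted in the same way, over all their starts (12.1% of 33469 single windows). The match of Prdx1 overlapped an AP-1 site, which only this member of the 10 held and which 8.04% of all genes held. The TATA box was found for 2 members, Prdx1 and Sod1, and for 15.3% of all genes. A GC box was found for 9 of the 10 members, all but Cat, and for 36.0% of all genes. The window of Cat held CCAAT boxes, 4 of them in the run shown, and 6 members had at least 1, against 39.6% of all genes. These matches describe letters in these windows and were not tested for binding.

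Txnrd1 encodes the cytosolic thioredoxin reductase. Its level was 78.6, 82.2 and 85.4 CPM in NP replicates 1, 2 and 3, and 137, 137 and 124 CPM in LP replicates 1, 2 and 3. Every LP sample lay above every NP sample. The mean was 81.2 ± 3.7 CPM (SD, n = 2) in NP and 134 ± 4.4 CPM in LP, a fold change of 1.61 (log2 0.69, standard error 0.065, adjusted p = 2.51e-07 by edgeR). Among all genes tested, 92.5% had a lower log2 fold change. In RefSeq the span of Txnrd1 also holds the gene Eid3, for which no value is given here, and lncRNAs, and whether reads were counted by strand is not given in the sources used here.

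Txnrd2, the mitochondrial thioredoxin reductase, had the largest change of the members. Its level was 21.8, 13.1 and 16.1 CPM in NP replicates 1, 2 and 3, and 39.0, 35.0 and 31.5 CPM in LP replicates 1, 2 and 3. The groups did not overlap. The highest NP sample was replicate 1, at 61 reads against 40 and 49. The mean was 18.2 ± 5.1 CPM (SD, n = 2) in NP and 36.1 ± 4.0 CPM in LP, and with n = 2 these SDs do not rank the precision of the means. The fold change was 2.08 (log2 1.05, standard error 0.16, 95% confidence interval 0.72 to 1.38, adjusted p = 5.46e-05 by edgeR). The log2 value was 0.84 in replicate 1 alone and 1.19 in replicates 2 and 3. It fell below 1, that is below a 2-fold change, without NP replicate 2 (0.89) or LP replicate 1 (0.97) and with libraries scaled by their totals alone (0.98), while the adjusted p was 0.00113 or lower in every alternative run.

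Cat encodes catalase, the peroxide-splitting enzyme of peroxisomes. It was at 237, 222 and 217 CPM in NP replicates 1, 2 and 3, and at 301, 273 and 271 CPM in LP replicates 1, 2 and 3. All LP samples were above all NP samples, and in both groups replicate 1 was the highest. From 228 ± 12 CPM (SD, n = 2) in NP, the mean rose to 287 ± 20 CPM in LP, a fold change of 1.25 (log2 0.32, standard error 0.060, adjusted p = 0.000541 by edgeR). The span of Cat overlaps 1 pseudogene in RefSeq. Most tested genes of peroxisome biogenesis and peroxisomal oxidases did not share this direction. Of 18 tested, 1 rose (Pex19, log2 fold change 0.31, adjusted p = 0.00470), 1 fell (Pex11a, -0.65, adjusted p = 0.000347) and 16 were not called, with a median of -0.18. The call on Pex19 was lost with DESeq2 (0.125). Called higher were 2 of this list without NP replicate 1, 2 or 3 or LP replicate 3, and called lower were 2 without NP replicate 1 and 3 with library totals alone.

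Gpx3, the secreted glutathione peroxidase found in plasma, was the member called lower. Its level was 157, 157 and 149.7 CPM in NP replicates 1, 2 and 3, and 124, 119.5 and 119 CPM in LP replicates 1, 2 and 3. All LP samples lay below all NP samples. The mean fell from 155 ± 2.4 CPM (SD, n = 2) to 121 ± 3.4 CPM, so that NP was 1.28-fold higher (log2 fold change -0.36, standard error 0.054, adjusted p = 7.10e-05 by edgeR). The values of replicate 1 alone (-0.34) and of replicates 2 and 3 (-0.37) lay close to each other.

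The other glutathione peroxidases of the set did not pass the test. Gpx1, the abundant cytosolic form, was at 54.3, 74.7 and 77.5 CPM in NP replicates 1, 2 and 3 and at 76.6, 82.4 and 85.8 CPM in LP. NP replicate 1 stood apart from the other NP samples, and the lowest LP sample lay below the highest NP sample. The means were 65.2 ± 15.4 CPM (SD, n = 2) and 80.4 ± 5.3 CPM. The log2 fold change was 0.24 (95% confidence interval 0.029 to 0.45, adjusted p = 0.0887 by edgeR). This adjusted p was 0.00886 with the replicate number as a block, 0.0230 with replicates 2 and 3 summed and the block added, and 0.0422 without NP replicate 3, and the log2 fold change was 0.10 without NP replicate 1 (adjusted p = 0.417). Gpx4, which reduces lipid peroxides in membranes, was at 57.9, 58.6 and 55.8 CPM in NP and 63.2, 61.1 and 64.1 CPM in LP. Although its groups did not overlap, as for 40.1% of all genes tested, the log2 fold change of 0.13 (95% confidence interval -0.026 to 0.28) did not pass (adjusted p = 0.281 by edgeR). RefSeq names 4 pseudogenes of Gpx4, so that part of its reads may be lost or misplaced.

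The peroxiredoxins of the set were not called either. Prdx5, a peroxiredoxin of mitochondria, peroxisomes and cytosol, was at 145, 137 and 157 CPM in NP and 168, 156 and 167 CPM in LP, with an overlap of the groups. The means were 146 ± 1.5 CPM (SD, n = 2) and 165 ± 4.3 CPM. Its log2 fold change was 0.16 (95% confidence interval 0.027 to 0.29, adjusted p = 0.0707 by edgeR). The adjusted p was 0.0161 with the replicate block, 0.0255 with replicates 2 and 3 summed and the block added, 0.0426 without NP replicate 3 and 0.0387 when only genes averaging 50 reads or more were kept. With the block, therefore, 5 members instead of 3 were called higher. In RefSeq its span overlaps that of Trmt112, a methyltransferase subunit named after its values were seen, which had a log2 fold change of -0.19 (adjusted p = 0.0850 by edgeR). Prdx4, the peroxiredoxin of the endoplasmic reticulum, was at 46.4, 43.9 and 47.6 CPM in NP and 43.1, 37.1 and 43.6 CPM in LP. Here the highest LP value lay just under the lowest NP value, and the log2 fold change was -0.16 (95% confidence interval -0.36 to 0.045, adjusted p = 0.259 by edgeR).

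Prdx1 could not be compared. This gene encodes an abundant cytosolic peroxiredoxin of most tissues, yet NP replicates 1, 2 and 3 held 1, 3 and 1 of its reads and LP replicates 1, 2 and 3 held 1, 1 and 3, at or below the 3 reads taken as the smallest countable level. RefSeq names 7 pseudogenes of Prdx1 and 1 gene like it, Prdx1l1, more than for any other member. Whether reads that match several copies were dropped in the counting was not tested, and these reads are not taken here as a measure of its level in the thyroid.

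Sod1, the cytosolic copper-zinc superoxide dismutase, was at 262, 265 and 259 CPM in NP and 291, 270.2 and 257 CPM in LP. The LP values spanned the NP values, with LP replicate 1 the highest and LP replicate 3 the lowest of all 6. The log2 fold change was 0.056 (95% confidence interval -0.066 to 0.18, adjusted p = 0.534 by edgeR), and it turned to -0.016 with libraries scaled by their totals alone.

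**Figure D2:**
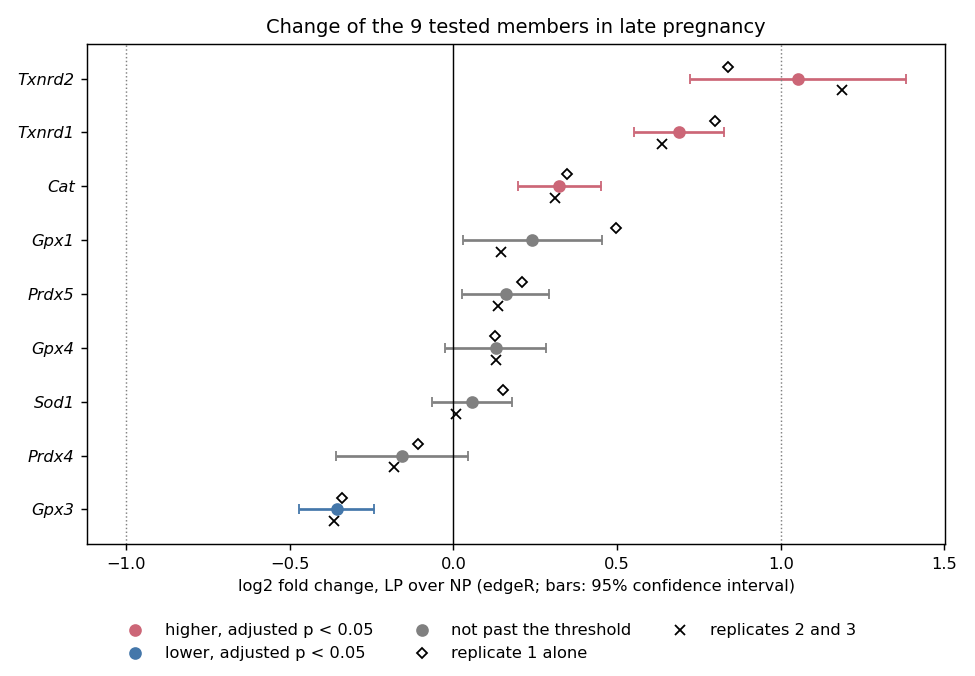
Log2 fold change of LP over NP for the 9 tested members (circles: edgeR estimate with its 95% confidence interval; red: called higher, blue: called lower, grey: not called; diamonds: replicate 1 alone, crosses: replicates 2 and 3; dotted lines: a 2-fold change). Txnrd2 at 1.05 and Txnrd1 at 0.69 lie at the top, Gpx3 at -0.36 at the bottom, and for each member replicate 1 and replicates 2 and 3 fall on the same side of 0.

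The paralogs of the members outside the set were mixed. Of the other peroxiredoxins with their repair enzyme sulfiredoxin, 2 of 4 rose and 0 fell (edgeR; also 0 at an unadjusted p of 0.05 and 0 by DESeq2). Prdx3, the mitochondrial peroxiredoxin, was at 63.6, 58.6 and 66.0 CPM in NP and 92.6, 90.4 and 84.0 CPM in LP (log2 fold change 0.50, adjusted p = 3.92e-05 by edgeR). Srxn1, sulfiredoxin, was at 23.6, 25.2 and 22.3 CPM in NP and 45.0, 45.1 and 40.4 CPM in LP (log2 fold change 0.87, adjusted p = 7.69e-06 by edgeR). For both genes all LP samples were above all NP samples. Prdx2 had a log2 fold change of -0.083 (95% confidence interval -0.21 to 0.044) and Prdx6 of 0.040 (-0.094 to 0.17), and neither passed. RefSeq names 1 pseudogene of Prdx3 and 3 of Prdx6.

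Of the other glutathione peroxidases, 0 of 3 rose (edgeR; also 0 at an unadjusted p of 0.05 and 0 by DESeq2) and 1 fell, Gpx8 of the endoplasmic reticulum, at -0.41 (adjusted p = 0.0254 by edgeR). With library totals alone 2 fell. The call on Gpx8 was lost with replicates 2 and 3 summed (adjusted p = 0.0804), with DESeq2 (0.177) and without NP replicate 2 (0.0877), NP replicate 3 (0.124) or LP replicate 2 (0.0900). Of the other superoxide dismutases and the copper chaperone, 2 of 3 rose and 1 fell. Sod2, the mitochondrial manganese enzyme that feeds peroxide into this system, was at 165, 125 and 136 CPM in NP and 236, 213 and 218 CPM in LP, with no overlap. The log2 value of the change was 0.65 (standard error 0.082, adjusted p = 1.03e-05 by edgeR). Sod2 has 1 named pseudogene in RefSeq. Ccs, which loads copper onto Sod1, was called lower at -0.24 (adjusted p = 0.0313 by edgeR), a call lost with replicates 2 and 3 summed (0.0786), with DESeq2 (0.312) and without NP replicate 2 (0.0703), NP replicate 3 (0.0879) or LP replicate 3 (0.152).

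The list of thioredoxins and their partners held thioredoxins, glutaredoxins, the thioredoxin inhibitor Txnip and a further thioredoxin reductase, Txnrd3, and it gave 2 of 9 higher and 3 of 9 lower (1 higher without NP replicate 2, NP replicate 3 or LP replicate 3, with replicates 2 and 3 summed, with DESeq2 and with library totals alone). Txn2, the mitochondrial thioredoxin reduced by Txnrd2, was at 91.5, 93.0 and 96.5 CPM in NP and 128, 132 and 129.7 CPM in LP (log2 fold change 0.47, adjusted p = 6.38e-06 by edgeR). Txn1, the cytosolic thioredoxin reduced by Txnrd1, had a log2 fold change of 0.18 (adjusted p = 0.0256 by edgeR). In RefSeq there is 1 gene like it, Txn1l1. The call on Txn1 was lost with replicates 2 and 3 summed (0.145), with DESeq2 (0.218), with library totals alone (0.165) and without NP replicate 2 (0.131), NP replicate 3 (0.0539), LP replicate 2 (0.0907) or LP replicate 3 (0.132). Glrx3, a cytosolic glutaredoxin of iron-sulphur handling, fell by 0.42 on the log2 scale (adjusted p = 0.000962 by edgeR). The other genes called lower, named after their values were seen, were Txnip (log2 fold change -0.31, adjusted p = 3.71e-06) and the mitochondrial glutaredoxin Glrx5 (-0.17, adjusted p = 0.0292). Txnrd3, named likewise, was not called, at 0.47 (adjusted p = 0.0785, unadjusted p = 0.0241 by edgeR).

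**Figure D3:**
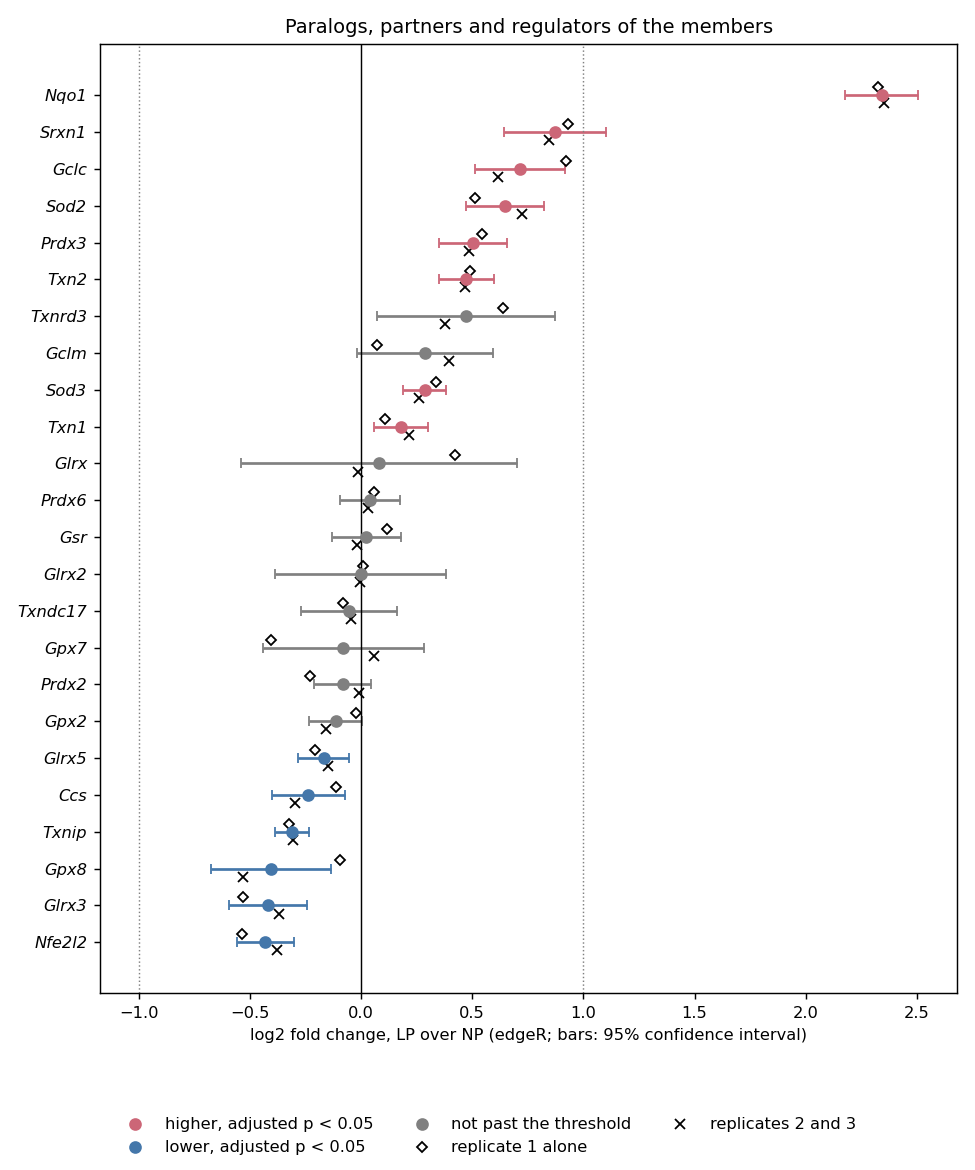
Log2 fold change of LP over NP for all tested genes of 4 lists (other peroxiredoxins and sulfiredoxin, other glutathione peroxidases, thioredoxins and partners, superoxide dismutases and copper chaperone) and for Gsr, Gclc, Gclm, Nfe2l2 and Nqo1, drawn as for the members. Nqo1 at 2.34 lies beyond the dotted line of a 2-fold change, and Nfe2l2 at -0.43 is among the lowest.

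Glutathione synthesis and reduction gave 2 of 7 higher and 2 of 7 lower. Gclc, the catalytic subunit of the first enzyme of glutathione synthesis, was at 29.3, 32.4 and 33.5 CPM in NP and 55.6, 50.1 and 51.1 CPM in LP (log2 fold change 0.71, adjusted p = 1.95e-05 by edgeR). The modifier subunit Gclm had a value of 0.29 (95% confidence interval -0.019 to 0.59, adjusted p = 0.165 by edgeR). Glutathione reductase (Gsr), which serves the glutathione peroxidases as Txnrd1 serves the peroxiredoxins, had a value of 0.023 (-0.13 to 0.18, adjusted p = 0.877 by edgeR). Chac1, which degrades glutathione, rose from 2, 5 and 2 reads in NP to 26, 40 and 38 in LP (log2 fold change 3.33, standard error 0.37, adjusted p = 1.81e-06 by edgeR). Ggt7, a relative of the gamma-glutamyltransferases, was called lower at -0.55 (adjusted p = 0.0271 by edgeR), a call that was lost with replicates 2 and 3 summed (0.0838), with DESeq2 (0.244) and without NP replicate 2 (0.121), NP replicate 3 (0.0658), LP replicate 2 (0.0793) or LP replicate 3 (0.0634).

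Both reductase systems draw on NADPH. Of the enzymes that supply it, 5 of 8 rose and 1 of 8 fell. Nnt, the transhydrogenase that makes NADPH in mitochondria, was at 197, 201 and 193 CPM in NP and 545, 502 and 493 CPM in LP (log2 fold change 1.38, standard error 0.055, adjusted p = 2.32e-12 by edgeR). Taldo1, transaldolase of the pentose phosphate pathway, fell by 0.23 (adjusted p = 0.00765 by edgeR), a call lost with replicates 2 and 3 summed (0.0695). Among glutathione S-transferases, 4 of 12 rose and 1 of 12 fell. The largest rise was that of Gstm7, from 30, 57 and 54 reads in the NP samples to 140, 150 and 131 in the LP samples (log2 fold change 1.43, adjusted p = 1.15e-06 by edgeR), and Gsta4 fell by 0.28 (adjusted p = 0.00156). Transferases of 1 class are close in sequence, so that reads may be shared between them.

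NRF2, encoded by Nfe2l2, is the transcription factor known to bind the antioxidant response element. Its list held transcription factors as well as targets, so its count is not a count of targets. It gave 4 of 11 genes higher and 1 lower. Besides Nqo1, those higher, named after their values were seen, were Bach1 (log2 fold change 0.62, adjusted p = 0.0145 by edgeR), Hmox1 (0.61, adjusted p = 0.0199) and Nfe2l1 (0.44, adjusted p = 1.06e-05). The 1 gene lower was Nfe2l2 itself, at 141, 134 and 126 CPM in NP and 97.1, 97.9 and 102 CPM in LP (log2 fold change -0.43, standard error 0.061, adjusted p = 3.45e-05 by edgeR). Nqo1, a quinone reductase and textbook target of NRF2, was at 51.4, 46.5 and 42.0 CPM in NP and 258, 227 and 225 CPM in LP. Its fold change of 5.07 (log2 2.34, standard error 0.078, adjusted p = 1.89e-13 by edgeR) was the largest in this list, and no LP sample came near an NP sample. Of this list, 2 instead of 4 were called higher without NP replicate 3, with replicates 2 and 3 summed, with DESeq2 and when only genes averaging 50 reads or more were kept. NRF2 activity was not measured here.

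The selenoproteins of the set went both ways, with Txnrd1 and Txnrd2 higher, Gpx3 lower and Gpx1 and Gpx4 not called. A list of other selenoproteins left out Txnrd3, Gpx2 and Sephs2, which stood in other lists and were not called. Of the 11 tested in it, 0 rose (edgeR; also 0 at an unadjusted p of 0.05 and 0 by DESeq2) and 5 fell, with a median log2 fold change of -0.22. DESeq2 called 2 lower, and 3 were lower with replicates 2 and 3 summed, without NP replicate 1 and without LP replicate 2. The largest fall was that of Dio1, the deiodinase that makes T3 from T4, from 470.2, 439 and 434 CPM in NP to 355, 332 and 307 CPM in LP (log2 fold change -0.43, adjusted p = 2.13e-05 by edgeR). The other 4, named after their values were seen, were Selk, Sep15, Sepp1 and Vimp, with log2 fold changes of -0.39, -0.35, -0.31 and -0.22. Of the genes that make selenocysteine and insert it, 0 of 10 were called in either direction (edgeR; also 0 at an unadjusted p of 0.05 and 0 by DESeq2), and their median was -0.040. With library totals alone, 2 of the 10 were called lower. Of the methionine sulfoxide reductases other than the selenoprotein Msrb1, which was counted above and not called (-0.029, adjusted p = 0.875 by edgeR), 1 of 3 rose, Msrb3 at 1.20 (adjusted p = 4.01e-05 by edgeR), and 0 fell (also 0 at an unadjusted p of 0.05 and 0 by DESeq2, but 1 without LP replicate 2).

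**Figure D4:**
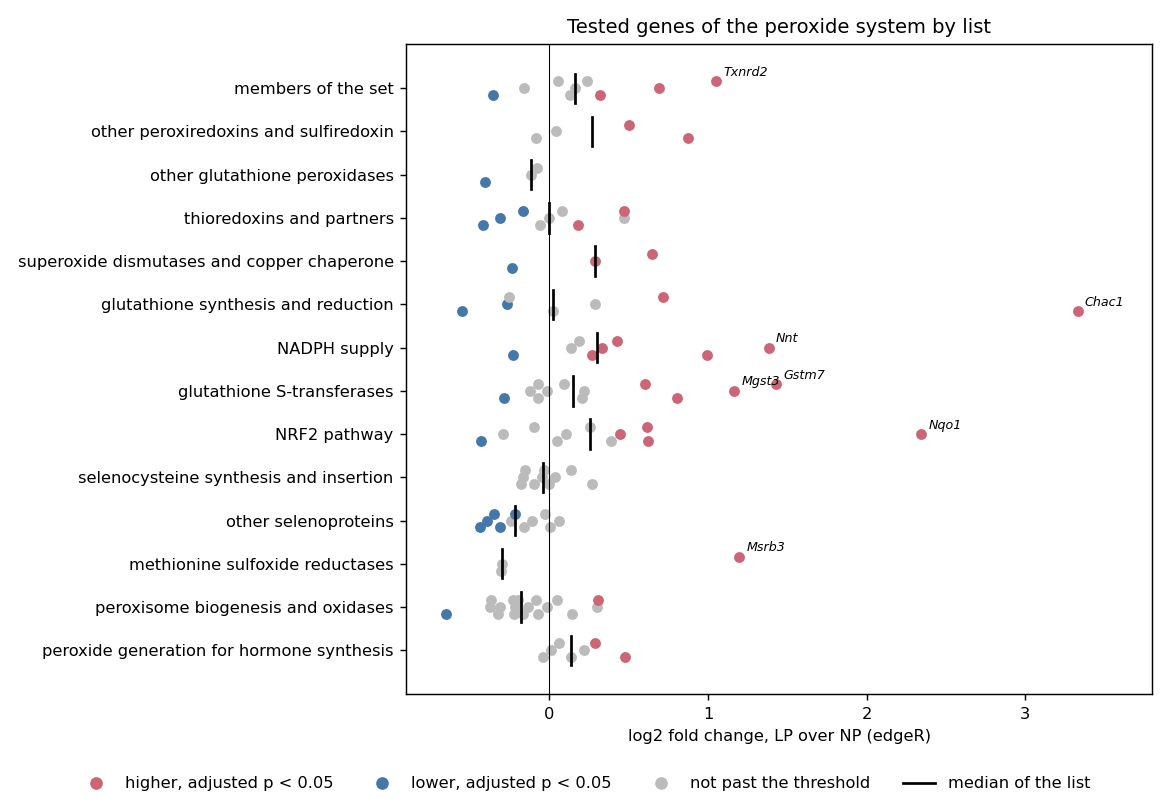
Log2 fold change of LP over NP for every tested gene, 1 row per list (red: called higher, blue: called lower, grey: not called; black bar: median of the list). Chac1 at 3.33 and Nqo1 at 2.34 lie far to the right, and the median of the other selenoproteins is at -0.22.

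On the side of peroxide production, 2 of 7 tested genes were higher in LP and 0 lower (edgeR; also 0 at an unadjusted p of 0.05 and 0 by DESeq2). The larger was Duoxa2, the maturation factor of dual oxidase 2, at 32.5, 30.1 and 36.1 CPM in NP and 44.7, 45.4 and 47.5 CPM in LP (log2 fold change 0.48, adjusted p = 0.00141 by edgeR). The other, named after its values were seen, was dual oxidase 2 itself, Duox2 (log2 fold change 0.29, adjusted p = 0.00946 by edgeR). The number called higher was 4 without NP replicate 1, 1 without LP replicate 1 and 1 with DESeq2, and 1 gene was called lower without LP replicate 1, with the replicate block and with library totals alone.

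Genes of other cell types moved with the groups. Of the skeletal muscle markers, 11 of 13 tested were higher in LP, all by more than 2-fold, and 0 lower (edgeR; also 0 at an unadjusted p of 0.05 and 0 by DESeq2). Their summed level was 22.9 to 79.9 CPM in the NP samples and 4578 to 4849 CPM in the LP samples, led by Tnnc2, Atp2a1 and Actn2, with Myh1 and Mylpf at 0 reads in every NP sample. Acta1, Pygm and Casq1 were at 0 in replicate 1 of both groups. Muscle also expresses catalase, Sod2, Nnt, Prdx3 and the thioredoxin reductases, and the part of muscle RNA in the changes of these genes was not tested. The markers of thyroid follicular cells were all present, with 3 of 11 higher, 3 lower and a summed level of 231536 to 249899 CPM in NP and 241760 to 258133 CPM in LP, nearly all of it thyroglobulin. Erythrocytes, which are rich in catalase and Prdx2, had 1 of 5 markers higher and 2 lower, and a summed level of 220 to 243 CPM in NP and 201 to 211 CPM in LP. Macrophage markers were called in 0 of 9 cases (edgeR; 2 higher at an unadjusted p of 0.05, 0 by DESeq2), and adipocyte markers in 0 of 5 and lymphocyte markers in 0 of 1 (0 at an unadjusted p of 0.05 and 0 by DESeq2 for both). Endothelial markers were lower in 3 of 7 cases, and 1 of 4 parathyroid markers was lower. Fibroblast and C cell markers were each higher for 1 gene and lower for 1 gene. Of 6 airway markers, 3 had enough reads to be tested, and all 3 were higher (2 by DESeq2). These 3 had at most 8 reads in any NP sample. Among the 3 not tested, Tekt1 did not rise: LP replicates 1, 2 and 3 gave it 2, 11 and 6 reads, against 8, 11 and 10 for the NP replicates. Scgb3a2 and Muc5b had at most 3 reads in any sample. All 6 together summed to 5.72 to 10.2 CPM in NP and to 23.9 to 25.2 CPM in LP. With the scaling computed without the muscle markers, the members called were the same 4. That run changed the scaling only and took no muscle RNA out of the member counts, so it cannot show the part of muscle RNA in them.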

How the data were processed

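Thyroid RNA (poly(A)+ libraries, TruSeq kit, Illumina sequencing) was analysed from 3 NP and 3 LP samples. The authors mapped reads to rat genome rn5 with TopHat 1.4.0, counted them on Ensembl release 81 gene models with HTSeq-count, and deposited raw counts per gene, 1 table per sample, without normalization. The version of HTSeq, its strand setting and its handling of reads with several matches are not given in the sources used here.

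From the deposited counts, edgeR 4.0.16 under R 4.3.3 gave the main results (quasi-likelihood test, TMM, default filter on low counts, which kept 11738 of 15388 genes, and Benjamini-Hochberg adjustment over these genes). A gene was called at an adjusted p below 0.05. Each standard error was derived from the estimate and its F statistic, and confidence intervals are at 95%. A level of 3 reads, 0.870 to 1.09 CPM, was taken as the floor, which covers counting error only. DESeq2 1.42.0 was an alternative, as were the replicate block, each sample left out, replicates 2 and 3 summed, other filters, other scalings and an adjusted p below 0.01. The steps were tested on simulated data.

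Deviations from the group means correlated between samples of the same number (0.493, 0.223 and 0.192 for replicates 1, 2 and 3). The block treated the numbers, taken from the labels, as pairs, though the labels state no pairing. Replicates 2 and 3 correlated about as much across numbers (0.216 and 0.215), so these values give no ground to pair them by number. The block lowered edgeR's coefficient of variation from 0.0645 to 0.0131, which leaves mainly counting noise.

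Members and lists were chosen with earlier results of these data known. Named genes are the 10 members, from each pathway list the called genes with the largest change up and down, and the nearest paralogs, partners and regulators of members. Promoter sequences, pseudogenes and overlapping spans came from RefSeq (GRCr8), where all 10 members were matched by symbol.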

Additional observations from a re-analysis of the deposited data

How the results depend on the processing

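Txnrd1, Txnrd2, Cat and Gpx3 passed an adjusted p of 0.05 under every alternative run, the largest being 0.0123 (replicates 2 and 3 summed). With the replicate block, 5 were called higher in place of 3, and likewise 5 with replicates 2 and 3 summed and the replicate block added. With each sample left out in turn, 3 to 5 were called higher, 5 without NP replicate 3. A fold change above 2 was passed by 0 to 1 members with each sample left out, 0 without NP replicate 2 or LP replicate 1, and by 0 with library totals alone. Of 35 genes run singly under the alternatives (the members and the genes named by rule), 3 turned in direction, none of them called: Gsr (-0.0111 to 0.0583 with each sample left out, below 0 without NP replicate 1 or LP replicate 2, at -0.00669 for the latter, and -0.049 with library totals alone), Sod1 (-0.00111, without LP replicate 1, to 0.0948 with each sample left out, and -0.016 with library totals alone) and Prdx6 (-0.032 with library totals alone). The replicate block changed the call of Gpx1 (adjusted p = 0.00886) and Prdx5 (adjusted p = 0.0161) and of no other of these 35 genes. Genes named after their values were seen were not run singly. DESeq2 called 1843 genes in all, against 3172 by edgeR. The depth of 2752144 to 3449857 reads per sample limits what can be said of Prdx1 and of other genes with few reads, and with replicates 2 and 3 within sampling noise of each other the spread between animals is poorly known.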
